A study of Mus musculus with 23 samples.

Results

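Livers of C57BL/6J mice injected with recombinant FSTL3 were compared with livers of mice injected with vehicle in the same batch. The members were the 4 libraries titled FSTL3 and the 4 titled vehicle in batch 2, chosen by their titles, 8 of the 23 libraries of the series. According to the labels, candidate endocrine proteins were injected 3 times at 1 day intervals, at 1 µg per g body weight, and liver total RNA (800 ng per library) was sequenced as paired 50 bp reads. The 4 vehicle libraries of batch 1 served as a second, separate control. The composition of the vehicle, the species of the injected protein, and the sex, age and hour of collection of the mice are not given in the sources used here, and the labels do not say whether each library came from a separate animal. The p-values therefore measure the spread between these libraries, which may be partly technical.

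FSTL3 (follistatin-like 3) is a secreted glycoprotein that binds activins, myostatin and related ligands and keeps them from their receptors. Activins are dimers of inhibin beta subunits. They bind a type II receptor, which phosphorylates a type I receptor, which in turn phosphorylates SMAD2 and SMAD3. The phosphorylated SMADs join SMAD4 and enter the nucleus, while bone morphogenetic proteins (BMPs) use the parallel branch of SMAD1, SMAD5 and SMAD9. In the liver, the beta C and beta E subunits are made mainly by hepatocytes, activin A restrains hepatocyte growth, and BMP6 from sinusoidal endothelium drives the iron hormone hepcidin.

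Of 21985 protein-coding nuclear genes, 11504 had enough counts to be tested, and edgeR's quasi-likelihood test with Benjamini-Hochberg adjustment called 6668 of them (58%) at an adjusted p below 0.05. Of these, 3292 (28.6% of genes tested) were higher after FSTL3 and 3376 (29.3%) lower, and 5848 genes (50.8%) had no overlap between the CPM (read counts scaled to a common library size) of the 2 groups. Against a threshold of a 1.5-fold change, 2790 genes (24.3%) passed. A call in this comparison was therefore common, and the counts in each group of genes below are to be set against these shares. Among the third of genes with the shortest exons, 7.9% were higher and 52.2% lower. Among the third with the longest exons these shares were 55.3% and 9.7%. Called shares lay below 58% in lists such as TGF-beta and activin targets (56.25%) and P450 and drug metabolism (54.1%). They were 50% in antigen presentation and in urea cycle and amino acid genes.

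The FSTL3 libraries stood apart from the vehicle libraries in make-up before any gene was considered. Total counts ran from 9298871 to 10930800 in FSTL3 and from 2517701 to 21892416 in vehicle, where replicate 2 was the deepest. Small structural RNAs took 0.667 to 0.753% of FSTL3 counts and 0.0056 to 0.00773% of vehicle counts, and long noncoding RNAs took 1.96 to 2.52% against 0.547 to 0.761%. Mitochondrial transcripts took 7.08 to 12.1% against 8.17 to 13.4%, ranges that overlap. The 15 hepatocyte markers, albumin and transthyretin among them, were all detected and summed to 126990 to 143050 CPM in FSTL3 and 129030 to 146900 CPM in vehicle, in keeping with the liver label. The part of the difference in RNA make-up in the results below was not tested.

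Among activin and TGF-beta ligands, the lowest member after FSTL3 was Inhbc, which encodes the inhibin beta C subunit (chromosome 10, 127356322 to 127370431, GRCm38). It stood at 15.5, 19, 13 and 17.2 CPM in the 4 FSTL3 libraries and 54.4, 77.3, 67.4 and 65.9 CPM in the 4 vehicle libraries. Every FSTL3 library lay below every vehicle library, and Inhbc fell by 2.04 ± 0.14 (SE) on the log2 scale (edgeR adjusted p = 3.11e-08). With the length trend described below removed, the Inhbc value was -1.47 (edgeR adjusted p = 1.23e-06), and against the vehicle of batch 1 it was -2.19 (edgeR adjusted p = 4.13e-10). A share of 0.987 of the Inhbc exon bases lay inside the span of another gene. For Inhbe and Inhba this share was 1. How far reads of overlapping genes entered or left these counts was not tested. Inhbe, the neighbour of Inhbc on the chromosome and the gene of the beta E subunit, did not pass. It measured 62.1, 77.5, 44.7 and 23.2 CPM in the 4 FSTL3 libraries and 40.6, 59.6, 58.7 and 41.2 CPM in the 4 vehicle libraries, with overlapping groups (log2 fold change 0.04 ± 0.37 (SE), edgeR adjusted p = 0.945). Inhba, which encodes the subunit of activin A, was at 13.1 ± 7.04 against 16.4 ± 1.99 CPM (SD, n = 4 and 4) and did not pass (log2 -0.38 ± 0.34, edgeR adjusted p = 0.382), whereas it was at -0.79 (edgeR adjusted p = 0.00397) without FSTL3 replicate 2.

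Of the 17 ligands listed, 12 had enough counts, 3 of those rose (28.6% of all genes tested did) and 2 fell (29.3% did), and their median log2 fold change was -0.01, beside -0.01 over all genes tested. Ligands higher and lower numbered 5 and 1 with the length trend removed and 0 and 3 against the vehicle of batch 1. The untested Inha, Mstn, Gdf11, Tgfb3 and Nodal each had from 0 to 34 counts summed over the 4 libraries of a group. Inhbb, the beta B subunit, was low throughout, at 1.3, 1.97, 2.56 and 2.86 CPM in the 4 FSTL3 libraries and 1.22, 0.449, 2.04 and 0.867 CPM in the 4 vehicle libraries. Its groups overlapped and its call (log2 fold change 1.46 ± 0.46 (SE), edgeR adjusted p = 0.0127) was lost without vehicle replicate 2 (log2 0.71, edgeR adjusted p = 0.235). Among the BMPs, Bmp6 (log2 1.02 ± 0.28, edgeR adjusted p = 0.00593) and Bmp10 (log2 1.0 ± 0.26, edgeR adjusted p = 0.00388) rose and Bmp4 (log2 -0.96 ± 0.30, edgeR adjusted p = 0.013) fell, although Bmp4 was not called with the length trend removed (-0.50, edgeR adjusted p = 0.179). The Bmp6 value moved to 1.76 without vehicle replicate 2. With the vehicle of batch 1 as control, Bmp6 measured 0.08 and Bmp10 0.25, and neither passed. The remaining ligands, Gdf15, Gdf2, Tgfb1, Tgfb2 and Bmp2, had log2 fold changes of 0.63, 0.07, -0.23, -0.06 and -0.08, and did not pass.

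The receptors lay on 1 side, with 8 of 11 tested members higher and none lower after FSTL3 (median log2 fold change 0.63). Over all genes tested, 28.6% were higher and 29.3% lower. Bmpr2, the type II BMP receptor, was at 154, 151, 179 and 181 CPM in the 4 FSTL3 libraries and 38.2, 47.5, 40.4 and 36 CPM in the 4 vehicle libraries, without overlap (log2 fold change 2.01 ± 0.12 (SE), edgeR adjusted p = 9.27e-09). It has 17983 bp of exon, and its value was 0.94 with the length trend removed (edgeR adjusted p = 9.78e-06) and 1.7 against the vehicle of batch 1 (edgeR adjusted p = 2.75e-09). Acvr2a, the type II activin receptor, was at 58.5, 60.3, 67 and 63.2 CPM in the 4 FSTL3 libraries and 42.5, 40.2, 45.5 and 33.4 CPM in the 4 vehicle libraries, again with the groups apart (log2 fold change 0.63 ± 0.11 (SE), edgeR adjusted p = 0.000189). Its value against the vehicle of batch 1 was 0.90 (edgeR adjusted p = 1.66e-06). Tgfbr1, the type I receptor of TGF-beta, read 68.4, 71.2, 76.4 and 64.4 CPM after FSTL3 and 32.7, 34.5, 32.2 and 35.5 CPM after vehicle (log2 fold change 1.05 ± 0.10 (SE), edgeR adjusted p = 7e-07), and the co-receptor betaglycan, Tgfbr3, 23.9, 22.9, 22.9 and 25.6 against 9.77, 7.63, 8.17 and 6.5 CPM (log2 fold change 1.58 ± 0.14 (SE), edgeR adjusted p = 3.5e-07). For both genes the 2 groups were fully separated, and both remained called with the length trend removed (0.82 and 1.34) and against the vehicle of batch 1 (0.89 and 1.04).

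The other receptor calls changed with the libraries or the control used. Eng, the endothelial co-receptor endoglin, rose (log2 1.03 ± 0.15, edgeR adjusted p = 2.78e-05), but was lower than in the vehicle of batch 1 (-0.40, edgeR adjusted p = 0.00425). The type II activin receptor Acvr2b was called (log2 0.87 ± 0.29, edgeR adjusted p = 0.0189), but not without FSTL3 replicate 2 or vehicle replicate 2 (log2 0.63 to 0.69, edgeR adjusted p = 0.0706 to 0.125). Acvr1b, the main type I activin receptor, was called (log2 0.41 ± 0.16, edgeR adjusted p = 0.0392), but not without FSTL3 replicate 1 or 2 or vehicle replicate 2 or 3 (log2 0.31 to 0.41, edgeR adjusted p = 0.0759 to 0.156). The same held for Tgfbr2 (log2 0.52 ± 0.18, edgeR adjusted p = 0.0244) without FSTL3 replicate 1 or 2 or 3 or vehicle replicate 2 or 3 (log2 0.36 to 0.50, edgeR adjusted p = 0.0534 to 0.122). Tgfbr2 was at 0.12 (edgeR adjusted p = 0.615) with the length trend removed. Acvr1b and Tgfbr2 were at -0.32 and -0.28 against the vehicle of batch 1 and did not pass there, nor did Acvr2b (0.32). Acvr1, Bmpr1a and Acvrl1 did not pass, with log2 values of -0.12, 0.21 and 0.03, although Bmpr1a was at 0.34 (edgeR adjusted p = 0.037) without vehicle replicate 3. Over the fits that each left out 1 library, 5 to 8 of the receptors were called higher, with 5 without FSTL3 replicate 2 and 5 without vehicle replicate 2. Receptors higher and lower numbered 7 and 0 with the length trend removed and 5 and 1 against the vehicle of batch 1.

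**Figure D1:**
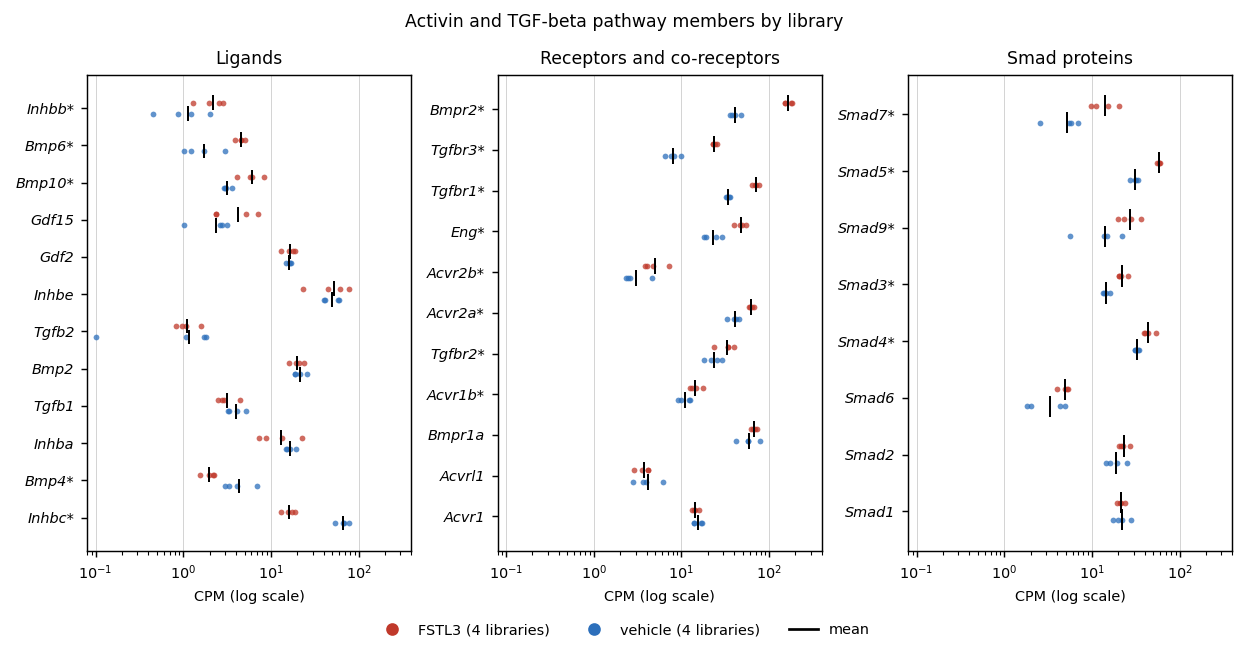
CPM (log scale) of each tested ligand, receptor and Smad in the 4 FSTL3 (red) and 4 vehicle (blue) libraries of batch 2, with black bars at the means. Asterisks mark an edgeR adjusted p below 0.05, values below 0.1 CPM are drawn at 0.1, and the reader should see Inhbc lower after FSTL3 and Bmpr2, Tgfbr3 and Tgfbr1 higher without overlap.

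Of the 8 Smad genes, which carry the signal to the nucleus, 5 rose (28.6% of all genes tested did) and none fell (29.3% did). Their median was 0.50. The counts were 6 and 0 with the length trend removed and 2 and 0 against the vehicle of batch 1. Smad7, an inhibitory Smad that TGF-beta itself induces, was at 11.1, 15.2, 9.83 and 20.2 CPM in the 4 FSTL3 libraries and 5.8, 5.5, 2.55 and 6.93 CPM in the 4 vehicle libraries. The lowest FSTL3 library lay above the highest vehicle library (log2 fold change 1.39 ± 0.27 (SE), edgeR adjusted p = 0.000652). In the fit with the vehicle of batch 1, Smad7 was at 0.36 and did not pass (edgeR adjusted p = 0.238). Smad5 of the BMP branch rose by 0.91 on the log2 scale (edgeR adjusted p = 3.36e-06) and was also called against the vehicle of batch 1 (0.55, edgeR adjusted p = 7.84e-05). Smad3 (0.57, edgeR adjusted p = 0.00186) and the common partner Smad4 (0.43, edgeR adjusted p = 0.00705) rose by smaller amounts, and neither was called against the vehicle of batch 1 (0.12, edgeR adjusted p = 0.476, and 0.26, edgeR adjusted p = 0.0871). The call of Smad9 (0.86, edgeR adjusted p = 0.0293) was lost without FSTL3 replicate 1 or 2 or vehicle replicate 2 or 4 (log2 0.68 to 0.87, edgeR adjusted p = 0.0536 to 0.0921). Smad9 was at 0.10 against the vehicle of batch 1 (edgeR adjusted p = 0.746). Smad2, the other activin Smad, was at 0.31 and did not pass (edgeR adjusted p = 0.111), nor did Smad1 (-0.02) or Smad6 (0.37). Smad2 was at 0.47 (edgeR adjusted p = 0.0143) without vehicle replicate 1, and Smad6 at 0.88 (edgeR adjusted p = 0.0396) without vehicle replicate 2.

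Endogenous Fstl3 had 0 counts in all 8 libraries, which allows up to 0.168 to 1.53 CPM per library (3 counts, counting error only). Of 12 listed antagonists, 6 were tested, and 1 was called higher and none lower, a call lost on leaving out any 1 FSTL3 library. Fst, which encodes follistatin, was at 0.975, 0.622, 1.39 and 7.11 CPM in the 4 FSTL3 libraries and 2.75, 4.38, 4.6 and 2.6 CPM in the 4 vehicle libraries, with FSTL3 replicate 4 above and the other FSTL3 libraries below all vehicle libraries (log2 fold change -0.55 ± 0.76 (SE), edgeR adjusted p = 0.561). Fst was at -1.91 (edgeR adjusted p = 0.000317) without FSTL3 replicate 4. Fstl1, Bambi, Chrd and Tgfbrap1 lay between -0.30 and 0.33 and did not pass. Listed antagonists higher and lower numbered 1 and 1 with the length trend removed and 1 and 2 against the vehicle of batch 1. Tgfbrap1 was called lower with the length trend removed (-0.41, edgeR adjusted p = 0.0126) and against the vehicle of batch 1 (-0.34, edgeR adjusted p = 0.0157).

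Genes that activin, TGF-beta or BMPs are known to induce did not move together. Of 16 tested, 4 rose (28.6% of all genes tested did) and 5 fell (29.3% did), and their median was -0.31. The share called, 56.25%, was near the 58% over all genes tested. The count of those lower was 3 without FSTL3 replicate 3 or vehicle replicate 2 and 8 without FSTL3 replicate 4, and that of those higher was 2 without vehicle replicate 1. Targets higher and lower numbered 4 and 4 with the length trend removed and 1 and 5 against the vehicle of batch 1. Hamp encodes hepcidin, the BMP-induced hormone that blocks iron export, and was at 81, 86.9, 72.5 and 208 CPM in the 4 FSTL3 libraries and 175, 659, 413 and 216 CPM in the 4 vehicle libraries. FSTL3 replicate 4 was the highest of its group and overlapped with the vehicle libraries (log2 fold change -1.72 ± 0.57 (SE), edgeR adjusted p = 0.0397). The Hamp call was lost without FSTL3 replicate 1 or 2 or 3 or vehicle replicate 2 or 3 (log2 -1.68 to -1.25, edgeR adjusted p = 0.0775 to 0.0965), and with the length trend removed the value was -0.34 (edgeR adjusted p = 0.673). Id2, a BMP-responsive inhibitor of helix-loop-helix factors, was at 98.7, 118, 86.1 and 115 CPM in the 4 FSTL3 libraries and 208, 326, 388 and 216 CPM in the 4 vehicle libraries, with the groups apart (log2 fold change -1.45 ± 0.20 (SE), edgeR adjusted p = 7.28e-05). Its relatives Id1 (0.42) and Id3 (-0.53) did not pass. Atoh8, another BMP target, fell (-0.97, edgeR adjusted p = 0.0102). Its call was lost without vehicle replicate 2 (log2 -0.61, edgeR adjusted p = 0.0892) and with the length trend removed (-0.57, edgeR adjusted p = 0.124). Against the vehicle of batch 1, Hamp and Atoh8 were both called lower.

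The largest fall in that list was in Cdkn1a, which encodes the cell-cycle inhibitor p21 (chromosome 17, 29090976 to 29100727, GRCm38). Its values were 0.65, 0.207, 0.534 and 1.19 CPM in the 4 FSTL3 libraries and 11.6, 15.4, 5.11 and 6.5 CPM in the 4 vehicle libraries, which do not overlap (log2 fold change -4.04 ± 0.42 (SE), edgeR adjusted p = 4.25e-06). Cdkn1a is also a target of p53 and of glucocorticoids. In the fit with the vehicle of batch 1 it did not pass the count filter, so not every vehicle library of that batch reached the filter's level. Its fall rests on the vehicle of batch 2 alone, and whether it was also lower than in the vehicle of batch 1 was not tested. Ccn2, the connective tissue growth factor, was higher in group mean with overlapping libraries (log2 fold change 1.57 ± 0.49 (SE), edgeR adjusted p = 0.0197), a call lost without vehicle replicate 1 or 2 (log2 1.43 to 1.71, edgeR adjusted p = 0.0614 to 0.0884) and against the vehicle of batch 1 (0.36, edgeR adjusted p = 0.57). Skil, a TGF-beta-induced repressor of Smads, rose by 0.89 (edgeR adjusted p = 0.00102) and was not called with the length trend removed (0.35, edgeR adjusted p = 0.108). The last calls of that list changed with single libraries. Ltbp1, which binds latent TGF-beta, was at 0.75 (edgeR adjusted p = 0.0309) and was not called without FSTL3 replicate 3 or 4 or vehicle replicate 1 or 4 (log2 0.63 to 0.73, edgeR adjusted p = 0.067 to 0.0835), with the length trend removed (0.13, edgeR adjusted p = 0.927) or against the vehicle of batch 1 (0.58, edgeR adjusted p = 0.111). Tgif1, a Smad corepressor, was at -0.37 (edgeR adjusted p = 0.026) and was not called without FSTL3 replicate 3 or vehicle replicate 2 or 4 (log2 -0.34 to -0.32, edgeR adjusted p = 0.059 to 0.0889) or against the vehicle of batch 1 (0.09, edgeR adjusted p = 0.935). The targets Ski, Pmepa1, Tgfbi and Col1a1 did not pass, with values from -0.95 to 0.22. Some of them passed when 1 library was left out. Col1a1, a collagen chain, was at -1.31 (edgeR adjusted p = 0.0076) without FSTL3 replicate 4 and -1.31 (edgeR adjusted p = 0.0135) without vehicle replicate 2, Pmepa1 at -0.69 (edgeR adjusted p = 0.0447) without FSTL3 replicate 4, Ski at -0.39 (edgeR adjusted p = 0.0425) without FSTL3 replicate 4 and -0.38 (edgeR adjusted p = 0.047) without vehicle replicate 1 and Tgfbi at 0.30 (edgeR adjusted p = 0.0423) without vehicle replicate 4.

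Fold changes depended on the summed length of each gene's exons, over which its reads were counted. Spearman's rho between log2 fold change and exon length was 0.549 across 11504 genes, which are not independent replicates and share the 8 libraries. Among the 3835 genes with the shortest exons (24 to 3391 bp), 303 were higher and 2002 lower, with a median of -0.48. Among the 3834 genes of middle length the counts were 868 and 1002 with a median of -0.01, and among the 3835 longest (5996 to 123179 bp) they were 2121 and 372 with a median of 0.50. Each FSTL3 library taken alone against the mean of the vehicle libraries gave a rho of 0.515 to 0.549. Each vehicle library against the other 3 gave -0.133 to 0.181.

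The same trend was present against the vehicle of batch 1 (rho 0.501), where 6360 of 11559 genes (55%) were called. When each library's own trend with exon length was removed by an offset, rho was 0.0117 by construction and 5467 genes (47.5%) were called, 2640 higher and 2827 lower. The plot of fold change by exon length class shows the trend under both controls. Of 221 genes chosen to be named, 191 were called, and 166 of these were called with the same sign with the trend removed. For the others in the text the value without the trend is printed. Many named genes were chosen for their calls or low p in these libraries, so these counts are not rates for all genes called. Whether the trend arose in the livers or in the libraries was not tested.

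**Figure D2:**
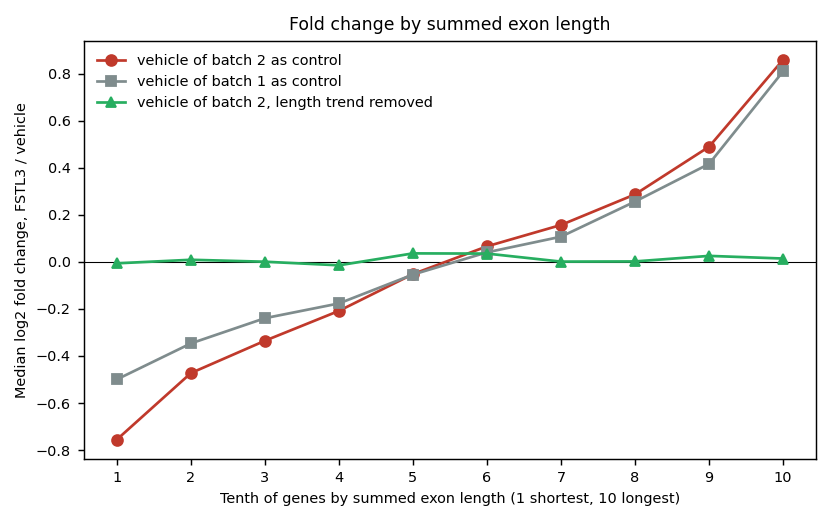
Median log2 fold change (y axis) of FSTL3 against vehicle in 10 equal classes of the 11504 tested genes by summed exon length (x axis, shortest to longest), for the vehicle of batch 2, the vehicle of batch 1 and the vehicle of batch 2 with the length trend removed. Against the vehicle of batch 2 the medians run from -0.76 in the shortest class to 0.86 in the longest.

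Because of this trend, the genes that differed most were taken separately from the short, middle and long genes above. Among short genes the lowest were the serum amyloid genes Saa1 and Saa2, 2 members of the major urinary protein family (Mup19 and Mup8, near-identical copies whose reads may be split), and Lcn2, a siderophore-binding acute phase protein. Saa1 was at 18.7, 11.6, 16.3 and 22.8 CPM in the 4 FSTL3 libraries and 569, 675, 5173 and 805 CPM in the 4 vehicle libraries. Vehicle replicate 3 was the highest library by far, and all FSTL3 libraries lay below all vehicle libraries (log2 fold change -6.69 ± 1.05 (SE), edgeR adjusted p = 0.00175). Without that library the values were -5.3 for Saa1, -5.42 for Saa2 and -4.0 for Lcn2, against -6.69, -7.33 and -5.37 with it. Mup19 (-7.2) and Mup8 (-6.21) moved to -8.65 without FSTL3 replicate 2 and -7.23 without FSTL3 replicate 3. Their FSTL3 values rest on 12 and 6 counts over 4 libraries.

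The highest short genes were histone genes and Mfsd2a. Hist1h1e, a linker histone, was at 47.5, 28.8, 35.3 and 43.8 CPM in the 4 FSTL3 libraries and 2.44, 2.24, 2.55 and 1.3 CPM in the 4 vehicle libraries (log2 fold change 4.13 ± 0.22 (SE), edgeR adjusted p = 5.13e-09), and Hist1h4d, Hist1h4c and Hist1h4h were at 5.69, 4.6 and 3.22. Transcripts of such replication-dependent histone genes end in a stem-loop and lack a poly(A) tail. Without vehicle replicate 2, Hist1h4d was at 6.42 and Hist1h4c at 5.25. The vehicle values of Hist1h4d, Hist1h4c and Hist1h4h rest on 6, 11 and 31 counts over 4 libraries. Of 15 tested histone genes, 9 rose and 5 fell, or 3 without vehicle replicate 2 (median 1.62), beside the small structural RNAs described above. The summed level of the list went the other way, at 175 to 221 CPM in FSTL3 and 253 to 352 CPM in vehicle. Mfsd2a, a transporter of lysophosphatidylcholine that is induced by fasting, was at 44.5, 62, 48.5 and 97.9 CPM in the 4 FSTL3 libraries and 4.58, 4.55, 4.09 and 4.77 CPM in the 4 vehicle libraries, with the groups far apart (log2 fold change 3.8 ± 0.30 (SE), edgeR adjusted p = 2.14e-06). Against the vehicle of batch 1 it was at -0.13 and did not pass (edgeR adjusted p = 0.828).

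Among genes of middle length the lowest were Cdkn1a, Fgl1, Snrpd3, Prg4 and Fabp5. Fgl1, a fibrinogen-like protein secreted by hepatocytes, was at 151, 117, 179 and 190.1 CPM in the 4 FSTL3 libraries and 1249, 1231, 2209 and 1317 CPM in the 4 vehicle libraries (log2 fold change -3.24 ± 0.22 (SE), edgeR adjusted p = 2.8e-07). Snrpd3, a core protein of spliceosomal ribonucleoproteins, had little spread within either group, at 9.1, 8.92, 10.9 and 11.4 CPM in the 4 FSTL3 libraries and 79.7, 91.5, 94 and 96.2 CPM in the 4 vehicle libraries (log2 fold change -3.16 ± 0.12 (SE), edgeR adjusted p = 6.38e-10). Both genes were called against the vehicle of batch 1 as well (-2.68 and -2.05), as were Prg4, or lubricin (-2.99 and -3.07), and the fatty acid binding protein Fabp5 (-2.52 and -1.28). The highest were Elf5, an epithelial ETS factor, at 9.86, 12, 10.8 and 7.41 CPM in the 4 FSTL3 libraries and 0, 0.617, 1.02 and 0.867 CPM in the 4 vehicle libraries (log2 fold change 4.05 ± 0.35 (SE), edgeR adjusted p = 2.42e-07), followed by the opsin family gene Rgr (3.65), the monocarboxylate transporter family gene Slc16a4 (3.2), the peroxisomal thioesterase Acot3 (2.94) and the peroxisomal fatty acid transporter Abcd2 (2.9). Elf5, Rgr and Slc16a4 were called against the vehicle of batch 1 too (4.76, 3.74 and 4.16), whereas Acot3 (-0.30) and Abcd2 (1.36) were not.

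Among long genes, Erbb4, a receptor of neuregulins, was at 25.4, 24.1, 31.6 and 14.9 CPM in the 4 FSTL3 libraries and 2.14, 1.68, 3.06 and 2.6 CPM in the 4 vehicle libraries, all FSTL3 libraries above all vehicle libraries (log2 fold change 3.56 ± 0.29 (SE), edgeR adjusted p = 3.16e-07). The sodium-calcium exchanger Slc8a1 (3.22), the polycystin family gene Pkdrej (2.95), the matrix protein Hmcn1 (2.94) and the cAMP phosphodiesterase Pde4d (2.92) followed. With the length trend removed these 5 were at 2.82, 2.12, 2.66, 1.73 and 2.19, and all were still called. Against the trend of its length class, Lpl, which encodes lipoprotein lipase, fell, at 10.8, 13.9, 16 and 28.6 CPM in the 4 FSTL3 libraries and 78.2, 57.2, 78.2 and 107 CPM in the 4 vehicle libraries (log2 fold change -2.17 ± 0.32 (SE), edgeR adjusted p = 0.000531). The value of Lpl against the vehicle of batch 1 was -0.32 and did not pass (edgeR adjusted p = 0.466). Lars2, the mitochondrial leucyl-tRNA synthetase, was at 36, 62.6, 40.5 and 53.2 CPM in the 4 FSTL3 libraries and 899.9, 888, 874 and 979 CPM in the 4 vehicle libraries (log2 fold change -4.24 ± 0.17 (SE), edgeR adjusted p = 6.38e-10). Its value against the vehicle of batch 1 had a wider error (-2.95 ± 0.64 (SE), edgeR adjusted p = 0.00835). The clock gene Arntl, A2ml1 of the alpha-2-macroglobulin family (-2.95) and the ferritin receptor Scara5 (-2.23) completed the lowest genes.

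**Figure D3:**
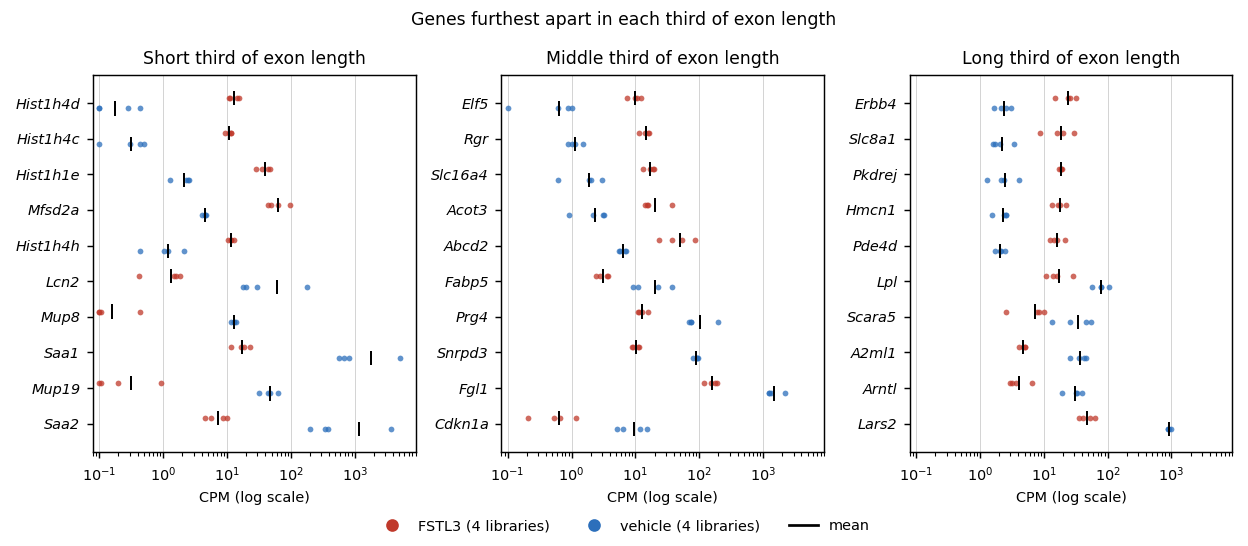
CPM (log scale) in each FSTL3 (red) and vehicle (blue) library of the 5 highest and 5 lowest called genes among short, middle and long genes (1 panel each), with black bars at the means and values below 0.1 CPM drawn at 0.1. The groups do not overlap, as the choice of these genes required, and vehicle replicate 3 sits apart for Saa1 at 5173 CPM.

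Plasma proteins of the acute phase response, which the liver secretes during inflammation, were lower as a group. Of 27 tested, 24 fell and none rose (median -1.33), and leaving out any 1 library left 23 to 25 lower. Haptoglobin (Hp), which binds free haemoglobin, was at 1696, 1703, 1420 and 1633 CPM in the 4 FSTL3 libraries and 5721, 5167, 9712 and 4656 CPM in the 4 vehicle libraries, with no overlap (log2 fold change -1.97 ± 0.21 (SE), edgeR adjusted p = 3.75e-06). The fibrinogen chain gene Fgg was at 2888 ± 276 against 8061 ± 1711 CPM (SD, n = 4 and 4) (log2 -1.48 ± 0.16, edgeR adjusted p = 1.67e-06), and the glycoprotein gene Lrg1 at 91.6 ± 17.5 against 302 ± 51.3 CPM (SD, n = 4 and 4) (log2 -1.72 ± 0.15, edgeR adjusted p = 4.34e-07). The list median was -1.33 as fitted, -1.0 with the length trend removed and -1.24 against the vehicle of batch 1, with 22 and 25 members lower in the latter fits. In the complement list, 18 of 22 were lower and none higher (median -0.72, -0.48 with the length trend removed), among them the terminal component C9 (log2 -1.41 ± 0.14, edgeR adjusted p = 1.04e-06). Coagulation factors had a median of -0.37 (0.04 with the length trend removed), with 11 of 19 lower, such as F10 (-0.89), and 2 higher, such as the gamma-carboxylase Ggcx (0.97).

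Protein quality control genes were also lower. Heat shock genes encode chaperones and their partners, and 18 of 21 fell with none higher (median -1.18). Cacybp, which binds S100 proteins and the ubiquitin ligase SIAH1, was at 24.1, 25.7, 31.8 and 32.6 CPM in the 4 FSTL3 libraries and 74.2, 111, 112 and 79.7 CPM in the 4 vehicle libraries (log2 fold change -1.73 ± 0.15 (SE), edgeR adjusted p = 5.25e-07). Leaving out any 1 library left 14 to 19 of the list lower. Of 27 tested genes of endoplasmic reticulum chaperones and secretion, 17 fell and 3 rose (median -1.08). Pdia3, a disulfide isomerase that folds glycoproteins, was at 379.8, 405, 382 and 429 CPM in the 4 FSTL3 libraries and 1047, 1493, 1291 and 1362 CPM in the 4 vehicle libraries (log2 fold change -1.7 ± 0.12 (SE), edgeR adjusted p = 5.51e-08), and Sec61b of the translocation channel was at log2 -2.25 ± 0.16. In the proteasome, which degrades ubiquitylated proteins, 30 of 31 subunits fell and none rose (median -0.96). Psmd7 of its lid was at 41.2, 37.2, 42.4 and 40.0 CPM in the 4 FSTL3 libraries and 115, 124, 137 and 118 CPM in the 4 vehicle libraries (log2 fold change -1.62 ± 0.10 (SE), edgeR adjusted p = 1.22e-08), again with the groups fully apart. With the length trend removed the medians of the 3 lists were -1.01, -0.94 and -0.58, and against the vehicle of batch 1 they were -0.52, -0.45 and -0.47. Not every member was lower under that control: Hspe1, the mitochondrial cochaperonin, was at -1.53 in batch 2 and 0.01 (edgeR adjusted p = 0.953) against the vehicle of batch 1.

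Because heat shock genes were lower together, the promoter that Hspe1 shares with the chaperonin gene Hspd1 is shown. The 250 bases before its RefSeq start (chr1:55087898-55088147, plus strand, GRCm38.p6) hold 2 overlapping matches to the heat shock element, searched on both strands as the blocks GAA, TTC and GAA with 2 unread bases between neighbours, and given in capitals.
Hspe1: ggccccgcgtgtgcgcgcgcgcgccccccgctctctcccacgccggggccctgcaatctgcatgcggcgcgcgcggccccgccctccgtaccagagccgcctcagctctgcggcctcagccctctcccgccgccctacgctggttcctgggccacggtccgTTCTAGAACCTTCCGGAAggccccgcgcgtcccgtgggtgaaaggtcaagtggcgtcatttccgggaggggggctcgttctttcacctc
The matches begin 89 and 84 bases before the start. Over windows of 300 bases (250 before to 50 after a start), 0.603% of 32851 RefSeq promoters held this motif. Among promoters of genes tested the share was 0.493%. The 15 heat shock genes with a promoter in the table have 20 promoters, of which 5 held it, in 4 genes. A match describes the letters and is neither a bound site nor a cause.

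Genes of cholesterol synthesis were mostly lower, with 15 of 26 lower and 2 higher (median -0.53 as fitted, -0.52 with the length trend removed and -0.34 against the vehicle of batch 1). Sqle, the squalene epoxidase, was at 46.1, 54.9, 51.6 and 30.8 CPM in the 4 FSTL3 libraries and 155, 119.5, 149 and 147 CPM in the 4 vehicle libraries (log2 fold change -1.63 ± 0.16 (SE), edgeR adjusted p = 2.07e-06), and Nsdhl, a sterol dehydrogenase, at 47, 38.5, 56.6 and 27.6 CPM in the 4 FSTL3 libraries and 144, 127, 148 and 157 CPM in the 4 vehicle libraries (log2 fold change -1.76 ± 0.18 (SE), edgeR adjusted p = 6.99e-06). FSTL3 replicate 4 was the lowest library for both genes, and the vehicle libraries lay above all FSTL3 libraries. Fdft1, the squalene synthase, fell as well (log2 -1.51 ± 0.13, edgeR adjusted p = 2.09e-07). Against the vehicle of batch 1, Fdft1 (-0.82) and Nsdhl (-1.31) were called and Sqle (-0.76, edgeR adjusted p = 0.0648) was not.

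Atf5, a transcription factor of the integrated and mitochondrial stress responses, was the lowest gene of the integrated stress response list, at 49, 44, 43.8 and 61.7 CPM in the 4 FSTL3 libraries and 280.4, 387, 355 and 393 CPM in the 4 vehicle libraries (log2 fold change -2.83 ± 0.14 (SE), edgeR adjusted p = 2.75e-09). Its value was -2.29 with the length trend removed and -2.22 against the vehicle of batch 1, both called. Of the 13 tested genes of that list 4 fell and 2 rose (median -0.41), or 1 higher without vehicle replicate 2, with the central factor Atf4 at log2 -0.86 ± 0.10. Removing the length trend left 4 higher and 4 lower (median -0.01), and against the vehicle of batch 1 these were 2 and 5 (median -0.25). Antioxidant genes of the glutathione and NRF2 list were lower in 20 of 28 with none higher (median -0.63 as fitted, -0.28 with the length trend removed and -0.21 against the vehicle of batch 1), such as superoxide dismutase Sod1 (-1.36) and the phospholipid hydroperoxide peroxidase Gpx4 (-1.46).

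Markers of liver sinusoidal endothelium rose, with 12 of 18 higher and none lower (median 0.89), and 11 to 13 higher on leaving out any 1 library. Stab2, the scavenger receptor stabilin-2, was at 132, 129, 135 and 122 CPM in the 4 FSTL3 libraries and 34.2, 26.3, 24.5 and 29.9 CPM in the 4 vehicle libraries, with no overlap (log2 fold change 2.17 ± 0.11 (SE), edgeR adjusted p = 4.03e-09). Stab1 (log2 1.94 ± 0.12) and the phosphatase Ptprb (log2 1.68 ± 0.13) rose similarly. The summed level of the list was 976 to 1189 CPM in FSTL3 and 433 to 555 CPM in vehicle. The markers Clec4g, Fcgr2b, Lyve1, Dnase1l3 and Gpr182 were not called, with log2 values of -0.15, 0.08, 0.84, 0.20 and 0.04. The median was 0.85 with the length trend removed, and 0.29 against the vehicle of batch 1, where 8 were higher and 4 lower. In whole liver, more or fewer cells of a type and more or less RNA per cell cannot be told apart.

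Other cell types gave mixed values. Of 16 stellate cell genes, 3 rose and 2 fell (median -0.12), with 4 lower without FSTL3 replicate 4 and 1 lower without FSTL3 replicate 1 or 2 or vehicle replicate 1, 3 or 4, and the summed levels overlapped, at 561 to 689 CPM in FSTL3 and 477 to 666 CPM in vehicle. Within that list Hgf, the hepatocyte growth factor, was at 37.2, 42.5, 42.6 and 37.1 CPM in the 4 FSTL3 libraries and 8.55, 7.74, 5.62 and 6.93 CPM in the 4 vehicle libraries (log2 fold change 2.41 ± 0.14 (SE), edgeR adjusted p = 8.06e-09) and was called against the vehicle of batch 1 as well (1.5). The defining stellate gene Lrat was at -0.01 and did not pass. Kupffer cell genes, which mark liver macrophages, were lower in 9 of 15 and higher in 2 (median -0.89 as fitted, -0.16 with the length trend removed and -1.1 against the vehicle of batch 1), with summed levels of 530.0 to 552 CPM in FSTL3 and 375 to 907 CPM in vehicle. C1qc, a subunit of complement C1q, was at 12.7, 14.2, 12.1 and 12.4 CPM in the 4 FSTL3 libraries and 34.5, 17.8, 43.9 and 42 CPM in the 4 vehicle libraries, where vehicle replicate 2 was the nearest to FSTL3 (log2 fold change -1.33 ± 0.26 (SE), edgeR adjusted p = 0.00104). The Kupffer markers Clec4f (-0.22) and Adgre1 (0.01) did not pass. Biliary epithelial genes fell in 6 of 7 tested (median -1.22, -0.51 with the length trend removed), with the keratins Krt18 (-1.22) and Krt8 (-0.81, and -0.26 with the trend removed, not called), which hepatocytes express too. Their summed level was 199 to 247 CPM in FSTL3 and 459 to 502 CPM in vehicle. The markers Krt7 and Krt19 had too few counts to test.

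Genes of blood cells and neighbouring tissues had few counts. Monocyte and neutrophil genes summed to 28.4 to 35.3 CPM in FSTL3 and 65.2 to 121 CPM in vehicle, and of the 4 tested of 13 listed 3 fell. Red blood cell genes summed to 172 to 319 CPM in FSTL3 and 254 to 338 CPM in vehicle, with 1 of 6 lower, or 3 without FSTL3 replicate 1 and 2 without FSTL3 replicate 4 or vehicle replicate 1, and 1 higher without FSTL3 replicate 3. Of the lymphocyte, adipocyte, skeletal muscle and pancreatic acinar lists, 1, 2, 1 and 1 members were tested. The muscle genes Ckm, Myh1, Tnnc2 and Mb and the pancreatic genes Prss1 and Amy2a5 had 0 counts in all 8 libraries. The part of these cells in the acute phase and interferon values was not tested.

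In several gene groups the median was nearer 0 with the length trend removed. Oxidative phosphorylation genes, which are short, were lower in 32 of 37 for complex I (median -0.90 as fitted, -0.31 with the length trend removed and -0.42 against the vehicle of batch 1) and in 33 of 38, with 1 higher, for complexes II to V (median -0.89 as fitted, -0.20 with the length trend removed and -0.45 against the vehicle of batch 1). Uqcrq of complex III was at 69.1, 67.4, 63.7 and 66.7 CPM in the 4 FSTL3 libraries and 243, 321, 291 and 351 CPM in the 4 vehicle libraries (log2 fold change -2.18 ± 0.12 (SE), edgeR adjusted p = 5.13e-09), and it remained called with the length trend removed (-1.58) and against the vehicle of batch 1 (-1.81). Ribosomal protein genes were lower in 26 of 40 for the large subunit (median -0.79, then -0.25 with the trend removed) and in 20 of 28, with 1 higher, for the small subunit (-1.09, then -0.53), the 1 higher not being called without FSTL3 replicate 2 or 4 or vehicle replicate 1, 2 or 3, with the reservation that such genes have many processed copies. At the long end, chromatin and coactivator genes rose in 23 of 30 and fell in 3 (median 0.86 as fitted, 0.06 with the length trend removed and 0.56 against the vehicle of batch 1). The chromatin remodeller Chd9 has 23148 bp of exon and was at 104, 97.5, 100.1 and 97.3 CPM in the 4 FSTL3 libraries and 36.7, 35.5, 28.6 and 25.6 CPM in the 4 vehicle libraries (log2 fold change 1.63 ± 0.12 (SE), edgeR adjusted p = 4.78e-08). With the length trend removed it was at 0.36 (edgeR adjusted p = 0.0172).

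Hepatocyte markers lay on both sides. Apob, whose long transcript encodes apolipoprotein B, was at 26359, 28715, 26487 and 25749 CPM in the 4 FSTL3 libraries and 13530, 10035, 9454 and 7043 CPM in the 4 vehicle libraries (log2 fold change 1.42 ± 0.17 (SE), edgeR adjusted p = 5.74e-06), while the short Apoa1 was at 4049 ± 445 against 9507 ± 249 CPM (SD, n = 4 and 4) (log2 -1.23 ± 0.12, edgeR adjusted p = 7.9e-07). Both kept their direction and call with the length trend removed (0.58 and -0.43). Over the 15 markers 2 rose and 9 fell, and the median was -0.52 as fitted, 0.00 with the length trend removed and -0.28 against the vehicle of batch 1. Albumin (Alb) was at -0.13 and the regulator Hnf4a at -0.17, and neither passed. Insulin and growth factor receptor genes rose in 10 of 16 with none lower (median 0.71 as fitted, 0.14 with the length trend removed and 0.56 against the vehicle of batch 1). Without FSTL3 replicate 4, 1 was lower. The insulin receptor gene Insr was at log2 0.91 ± 0.09 and 0.06 with the trend removed, whereas the insulin receptor substrate Irs1 (log2 1.79 ± 0.18, then 1.3) and the FGF21 co-receptor Klb (log2 1.59 ± 0.11, then 1.61) remained called.

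**Figure D4:**
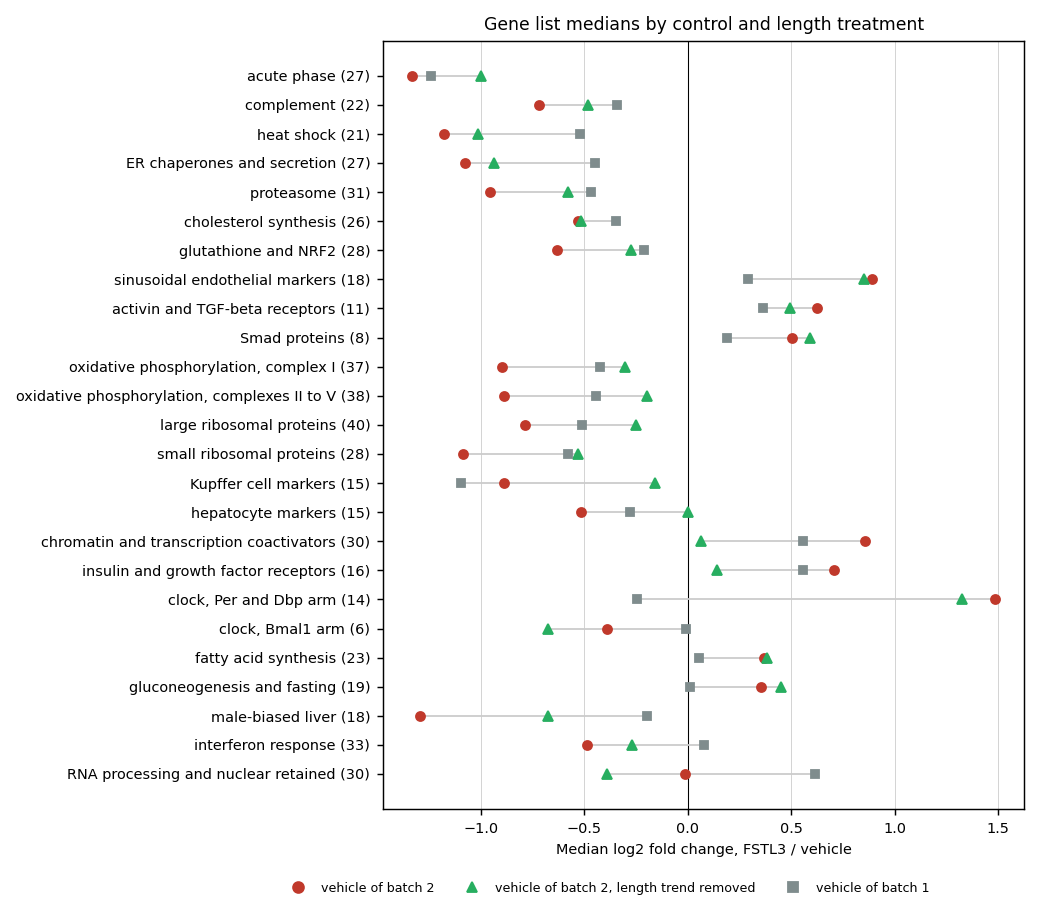
Median log2 fold change (x axis) of 25 gene lists (y axis, number of tested members in brackets) for FSTL3 against the vehicle of batch 2 (red), the same with the length trend removed (green) and against the vehicle of batch 1 (grey). The acute phase list stays between -1.33 and -1.0, the chromatin list moves from 0.86 to 0.06 with the trend removed, and the Per and Dbp arm is at 1.48 in batch 2 and -0.25 against batch 1.

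Clock genes, which mark the time of day in liver, separated the groups. In the mammalian clock, BMAL1 (gene Arntl) and CLOCK activate Per, Cry, Dbp and Rev-erb (Nr1d1, Nr1d2) genes through E-boxes, and REV-ERB and ROR proteins then act on Arntl, so that both arms run in opposite phase. Of 14 tested genes of the Per and Dbp arm, 11 rose and none fell (median 1.48), and as many were called on leaving out any 1 library. Of 6 genes of the Bmal1 arm, 1 rose and 3 fell. The sequences of 3 promoters of the first arm are shown for the motifs their regulators read, an E-box (CACGTG) or a D-box (TTATGTAA), searched on both strands and set in capitals.
Ciart: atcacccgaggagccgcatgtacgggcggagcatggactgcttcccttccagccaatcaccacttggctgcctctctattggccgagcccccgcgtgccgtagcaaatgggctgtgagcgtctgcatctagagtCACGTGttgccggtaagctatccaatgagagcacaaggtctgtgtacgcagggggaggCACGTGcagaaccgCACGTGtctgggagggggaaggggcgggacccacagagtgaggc
Per1: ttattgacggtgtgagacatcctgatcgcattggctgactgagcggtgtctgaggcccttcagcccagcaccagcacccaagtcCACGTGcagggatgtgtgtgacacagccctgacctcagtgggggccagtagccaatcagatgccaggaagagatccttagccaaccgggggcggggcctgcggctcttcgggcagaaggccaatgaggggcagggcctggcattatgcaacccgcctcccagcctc
Per3: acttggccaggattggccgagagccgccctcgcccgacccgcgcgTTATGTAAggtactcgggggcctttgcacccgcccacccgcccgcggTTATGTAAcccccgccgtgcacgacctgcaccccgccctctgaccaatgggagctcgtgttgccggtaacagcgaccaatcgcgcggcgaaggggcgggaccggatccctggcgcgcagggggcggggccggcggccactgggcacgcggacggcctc
Each is the 250 bases before a RefSeq start in GRCm38.p6, read in the gene's direction. Ciart is at chr3:95882229-95882478, minus strand, Per1 at chr11:69098699-69098948, plus strand and Per3 at chr4:151044666-151044915, minus strand. Another RefSeq start of Per1 has a window (chr11:69099902-69100201) without an E-box. The start shown was chosen because its window held one. Ciart has 3 E-boxes, 116, 58 and 44 bases before the start, Per1 has 1 at 166 bases, and Per3 has 2 D-boxes, at 205 and 158 bases. An E-box was present in 7.15% of 32851 promoter windows of 300 bases and a D-box in 0.938%. Among windows of genes tested these shares were 9.87% and 0.57%. The 12 genes of the arm with a promoter in the table have 15 windows, of which 6 held an E-box and 1 a D-box. By gene, 5 held an E-box and 1 a D-box.

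Per3 was at 52.3, 58.8, 59.1 and 53 CPM in the 4 FSTL3 libraries and 3.05, 3.76, 8.17 and 7.8 CPM in the 4 vehicle libraries (log2 fold change 3.55 ± 0.21 (SE), edgeR adjusted p = 1.8e-08). Dbp, an albumin promoter factor under direct clock control, was at 40.6, 49.5, 34.3 and 28.5 CPM in the 4 FSTL3 libraries and 0.916, 2.02, 8.68 and 13.9 CPM in the 4 vehicle libraries, with a wide spread within vehicle (log2 fold change 3.15 ± 0.64 (SE), edgeR adjusted p = 0.00475, 2.43 without vehicle replicate 2 and 3.85 without vehicle replicate 4). In the opposite arm, Arntl was at 3.14, 2.9, 3.63 and 6.62 CPM in the 4 FSTL3 libraries and 40.3, 33.2, 19.4 and 32.5 CPM in the 4 vehicle libraries (log2 fold change -2.96 ± 0.27 (SE), edgeR adjusted p = 2.16e-06) and Nfil3, a repressor that binds D-boxes, at 15.4, 13.6, 11.4 and 16.2 CPM in the 4 FSTL3 libraries and 57.1, 83.9, 65.9 and 36.4 CPM in the 4 vehicle libraries (log2 fold change -2.14 ± 0.22 (SE), edgeR adjusted p = 7.46e-06). For all 4 genes the groups were apart. Ciart (3.82, and 4.78 without vehicle replicate 2), Usp2 (2.45), Per1 (2.05), Tef (1.83), Bhlhe41 (1.77), Per2 (1.2), Bhlhe40 (1.19), Cry2 (1.08) and Nr1d2 (0.77) rose. Nr1d1 (0.09), Hlf (0.02) and Tspan4 (-0.20) were not called. Cry1 (-0.89) fell and Rora (0.52) rose, but Rora was lower with the length trend removed (-0.28, edgeR adjusted p = 0.038), while Clock (0.15) did not pass.

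A clock index was taken as the mean log2 CPM (pseudocount 0.5) over the Per and Dbp arm less the mean over the Bmal1 arm. It was 0.39, 0.43, 0.51 and 0.24 in the 4 FSTL3 libraries. It ran at -2.50, -2.09, -1.76 and -1.53 in the 4 vehicle libraries of batch 2, and 0.23, 0.62, 1.00 and 0.86 in the 4 vehicle libraries of batch 1. The FSTL3 libraries overlapped in this index with the vehicle of batch 1 and not with the vehicle of their own batch. Against the vehicle of batch 1, Per3 (0.82, edgeR adjusted p = 1.38e-06) and Nr1d2 (0.47, edgeR adjusted p = 0.000446) were still higher, Nfil3 (-1.1, edgeR adjusted p = 3.28e-06) and Cry1 (-0.58, edgeR adjusted p = 0.00876) still lower, and Arntl (0.49, edgeR adjusted p = 0.307) did not pass. Dbp (-1.21, edgeR adjusted p = 0.000327), Usp2 (-0.39, edgeR adjusted p = 0.00959) and Per1 (-0.62, edgeR adjusted p = 0.0271) had the opposite sign and passed, as did Hlf (-0.49, edgeR adjusted p = 0.000287), and Tspan4 was lower too (-1.53, edgeR adjusted p = 4.78e-09). That made 5 of 14 genes of the Per and Dbp arm lower and 2 higher under that control. Tef (0.20), Per2, Ciart, Bhlhe40, Bhlhe41 and Cry2 were not called, the last 5 between -0.49 and -0.02. In the Bmal1 arm 3 of 6 were lower, and 2 were higher, Clock (0.95, edgeR adjusted p = 3.05e-07) and Rora (1.13, edgeR adjusted p = 7.88e-07). That control differs from FSTL3 in batch, so injection and batch cannot be told apart in these values. Comparisons with the 2 vehicle groups share the FSTL3 libraries.

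**Figure D5:**
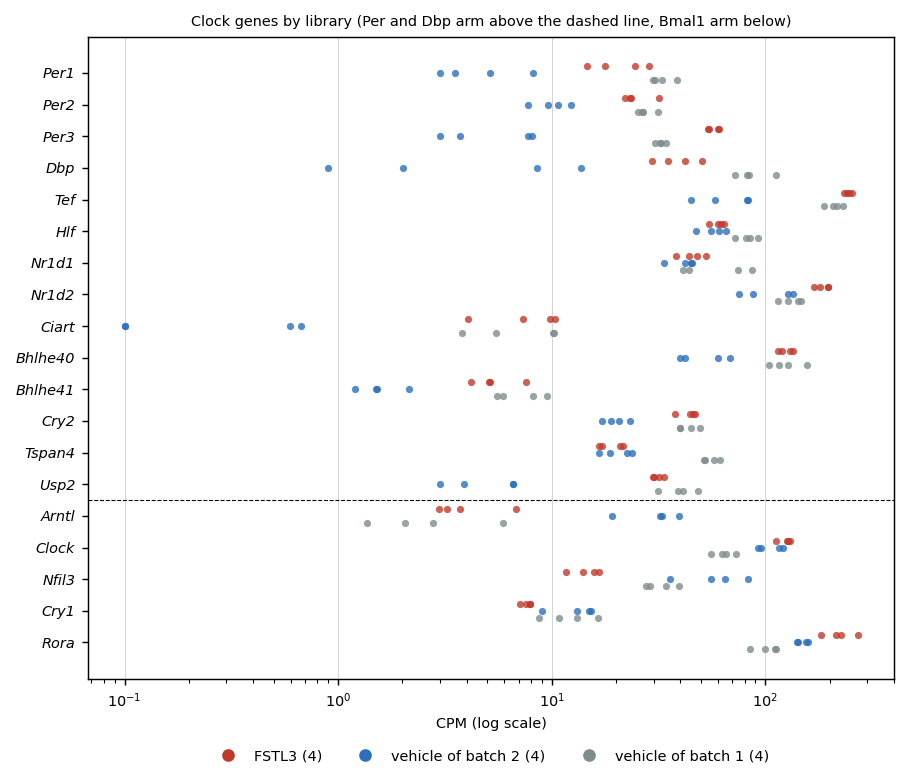
CPM (log scale) of clock genes in the 4 FSTL3 libraries (red), the 4 vehicle libraries of batch 2 (blue) and the 4 vehicle libraries of batch 1 (grey), with values below 0.1 CPM drawn at 0.1. For Per1, Ciart, Usp2 and Arntl the FSTL3 points lie nearer to the vehicle of batch 1 than to the vehicle of batch 2.

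Lipid metabolism genes took different values under the 2 vehicle controls. Srebf1, the gene of the lipogenic factor SREBP1, was at 154, 159.7, 129 and 131 CPM in the 4 FSTL3 libraries and 48, 35.5, 38.3 and 47.7 CPM in the 4 vehicle libraries (log2 fold change 1.78 ± 0.13 (SE), edgeR adjusted p = 4.45e-08). Srebf1 was at -0.11 against the vehicle of batch 1 and did not pass (edgeR adjusted p = 0.375). Ppara, the receptor that drives fatty acid oxidation, was at 236, 347, 240.5 and 227 CPM in the 4 FSTL3 libraries and 83.7, 72, 76.1 and 49 CPM in the 4 vehicle libraries (log2 fold change 1.9 ± 0.17 (SE), edgeR adjusted p = 1.27e-06), with FSTL3 replicate 2 the highest, and at 0.46 against the vehicle of batch 1 (edgeR adjusted p = 0.00977). Fatty acid synthesis genes rose in 11 of 23, or 7 without vehicle replicate 4, and fell in 3 (median 0.37 as fitted, 0.38 with the length trend removed and 0.05 against the vehicle of batch 1). Acaca, acetyl-CoA carboxylase, was called higher against both vehicles (1.53 and 0.68), and the acyltransferase Agpat2 lower against both (-1.07 and -0.74). Genes of PPAR-alpha and fatty acid oxidation rose in 5 of 32 and fell in 9 (median -0.15 as fitted, 0.11 with the length trend removed and -0.53 against the vehicle of batch 1), among them Pdk4, a kinase that restrains pyruvate oxidation (log2 -1.54 ± 0.20).

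Genes of gluconeogenesis and fasting rose in 8 of 19 and fell in 1, or 2 without FSTL3 replicate 4 (median 0.35 as fitted, 0.45 with the length trend removed and 0.01 against the vehicle of batch 1). Slc37a4, the glucose-6-phosphate transporter, and Foxo3 were higher against both vehicles (0.94 and 0.54, 1.16 and 0.93), and the CREB coactivator Crtc2 was lower against both (-1.23 and -1.59). In bile acid synthesis and transport 5 of 19 rose and 4 fell (median -0.16 as fitted, 0.26 with the length trend removed and 0.29 against the vehicle of batch 1). Abcc2, a canalicular export pump, was higher against both vehicles (0.91 and 0.63), while Baat, which conjugates bile acids, was lower against the vehicle of batch 2 (-1.03) and not called against that of batch 1 (0.05, edgeR adjusted p = 0.662). Lipoprotein genes rose in 8 of 24 and fell in 10 (median -0.22 as fitted, 0.28 with the length trend removed and -0.27 against the vehicle of batch 1), with the cholesterol exporter Abca1 higher under both controls (1.07 and 0.97). Of 16 lipid droplet genes 3 rose and 5 fell, or 3 without vehicle replicate 2 (median -0.21), the counts being 5 and 3 with the length trend removed and 0 and 7 against the vehicle of batch 1. Plin4, a droplet coat protein, rose (log2 2.19 ± 0.39), moved to 3.02 without vehicle replicate 2, and was at 0.40 against the vehicle of batch 1.

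Male-biased genes were mostly lower, while female-biased and drug-metabolising genes lay on both sides. Of 18 genes known to be higher in male liver, 13 fell and 1 rose, or 2 without FSTL3 replicate 4 or vehicle replicate 1 (median -1.29 as fitted, -0.68 with the length trend removed and -0.20 against the vehicle of batch 1). Mup20, a major urinary protein of a near-identical family, was at 1108, 1496, 1240 and 1028 CPM in the 4 FSTL3 libraries and 3982, 5109, 3260 and 3512 CPM in the 4 vehicle libraries (log2 fold change -1.7 ± 0.16 (SE), edgeR adjusted p = 5.98e-07), and was not called against the vehicle of batch 1 (-0.51, edgeR adjusted p = 0.117). Of 8 female-biased genes 4 rose and 3 fell (2 of 7 higher and none lower against the vehicle of batch 1), with Cyp2c40 the lowest (log2 -3.24 ± 0.33, and -0.33, edgeR adjusted p = 0.613, against the vehicle of batch 1), and Cyp2c69 at -3.18, or -3.81 without FSTL3 replicate 1. Cyp2c69 was not among the genes tested against the vehicle of batch 1. Both belong to a cluster of similar genes whose reads may be split. Of 14 genes of the growth hormone and IGF1 axis 1 rose, the kinase Jak2 (log2 0.57 ± 0.10), and 4 fell (median -0.28), with 2 higher without FSTL3 replicate 3 or 4. P450 and drug metabolism genes rose in 5 of 37, or 3 without FSTL3 replicate 1, and fell in 15 (median -0.25 as fitted, 0.23 with the length trend removed and -0.16 against the vehicle of batch 1). Urea cycle and amino acid genes rose in 7 of 40 and fell in 13 (median -0.15 as fitted, 0.13 with the length trend removed and 0.10 against the vehicle of batch 1). By zone of the liver lobule, 1 of 17 periportal genes rose and 8 fell (median -0.31), and 2 of 21 pericentral genes rose and 10 fell, or 6 without vehicle replicate 2 (median -0.42). Higher and lower periportal genes numbered 3 and 2 with the length trend removed and 3 and 3 against the vehicle of batch 1 (medians 0.02 and -0.02), and pericentral genes 2 and 5 with the length trend removed and 1 and 5 against the vehicle of batch 1.

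Immune and signalling lists were mixed. Interferon-induced genes fell in 14 of 33 and rose in 3 (median -0.49 as fitted, -0.27 with the length trend removed and 0.08 against the vehicle of batch 1). The ubiquitin-like modifier Isg15 was at 1.83 ± 0.520 against 8.80 ± 2.49 CPM (SD, n = 4 and 4) (log2 -2.23 ± 0.27, edgeR adjusted p = 5.71e-06), and Stat2 was lower under both controls (-1.02 and -0.54). The interferon-stimulated response element was searched on both strands as 2 copies of TTTC with 2 unread bases between them. The 24 list genes with a promoter in the table have 30 windows, of which 14 held the element, in 14 genes. It was in 3.44% of all windows and in 3.16% of those of genes tested. Antigen presentation genes fell in 6 of 18 and rose in 3 (median -0.14), with B2m, the light chain of class I molecules, at -1.12 and -0.11 with the length trend removed. The antigen presentation list had 8 higher and 1 lower with the length trend removed (median 0.24), and against the vehicle of batch 1 it had 1 higher and 14 lower (median -0.62). Genes of NF-kB and cytokine feedback rose in 4 of 17 and fell in 4, or 2 without vehicle replicate 2 (median -0.25), the numbers being 1 and 4 with the length trend removed and 0 and 9 against the vehicle of batch 1. The acute phase regulator Cebpb rose (log2 0.87 ± 0.16, edgeR adjusted p = 0.000347), but was lower than in the vehicle of batch 1 (-1.76, edgeR adjusted p = 1.1e-09). Of 15 immediate early genes 1 rose and 4 fell, or 7 without FSTL3 replicate 4. The one that rose was Klf10, a zinc finger factor that TGF-beta and the clock induce (log2 1.87 ± 0.21, edgeR adjusted p = 1.26e-05), and it was also called against the vehicle of batch 1 (1.27). Among glucocorticoid targets and metallothioneins 2 of 17 rose, or 4 without FSTL3 replicate 2, and 3 fell.

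Iron metabolism is under the control of BMP6 and hepcidin. Of 16 tested iron genes, 3 rose and 7 fell (median 0.04), or 5 and 4 with the length trend removed and 3 and 8 against the vehicle of batch 1. The ferritin heavy chain gene Fth1 was at 547 ± 40.8 against 1866 ± 246 CPM (SD, n = 4 and 4) (log2 -1.77 ± 0.12, edgeR adjusted p = 4.14e-08), and at -1.71 against the vehicle of batch 1. Hfe2, the BMP co-receptor hemojuvelin (-0.93), and Hfe (-0.62), both of which raise hepcidin, fell under both controls (-0.33 and -0.48 in batch 1). Of 15 cell cycle genes 1 rose, the cyclin Ccne2 (log2 0.81 ± 0.24), and 3 fell, including Cdkn1a and the replication helicase Mcm2 (log2 -0.93 ± 0.27), with 5 lower without vehicle replicate 2. Neither Ccne2 (0.59, edgeR adjusted p = 0.119) nor Mcm2 (-0.33, edgeR adjusted p = 0.476) was called against the vehicle of batch 1, and the list had 1 and 3 with the length trend removed and 1 and 1 against the vehicle of batch 1. Hepatocyte transcription factors rose in 10 of 24 and fell in 5, or 3 without vehicle replicate 2 (median 0.22 as fitted, -0.01 with the length trend removed and -0.57 against the vehicle of batch 1). Genes of RNA processing rose in 10 of 30 and fell in 10, and these counts were 0 and 16 with the length trend removed and 22 and 2 against the vehicle of batch 1 (median -0.02 as fitted, -0.39 with the length trend removed and 0.61 against the vehicle of batch 1).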

How the data were processed

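Whole-number read counts per gene, summed over exons, were deposited by the authors in 1 table. Per the submitters' processing notes reads were aligned with STAR 2.6.0c to GRCm38, and per the file header counting used featureCounts 1.6.3, which records no strand or pairing option. Gene symbols and biotypes came from GENCODE M21 by identifier (54809 of 54838 found).

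Each library was assigned by its title. Genes were filtered with filterByExpr, scaled by the trimmed mean of M values (TMM) and tested with edgeR 4.0.16 (robust quasi-likelihood test, Benjamini-Hochberg adjustment) in R 4.3.3 on the 8 libraries alone, with an SE from the F statistic. CPM are counts scaled to a common size of TMM-adjusted protein-coding nuclear totals. The length trend was removed by a per-library offset fitted to log exon length. On simulated counts for 11504 genes, 76% of 2-fold and 94% of 4-fold changes were called, with 100 genes at each size, and 11 unchanged genes were called. The simulation held few changed genes and no exon length trend, unlike these data, so its rates do not carry over to this comparison.

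The genes named are the 5 highest and 5 lowest called genes among short, middle and long genes by summed exon length with a mean of at least 5 CPM and no overlap between groups, not lying mostly inside another gene, the tested members of the activin and clock lists, and, from each other list with at least 5 tested members, the 3 with the lowest p. Other markers named as not called were added after their values were seen. The 8 libraries, the gene lists and the tests were chosen with earlier results of these data known. Alternatives were DESeq2 1.42.0 and its size factors, limma-voom (limma 3.58.1), other filters and gene sets, all 23 libraries, a 1.5-fold threshold, thinning, a replicate block, the vehicle of batch 1 and leaving out each library. Some genes that this rule names are not reported here.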

Additional observations from a re-analysis of the deposited data

Results flagged for a closer look

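Within groups of 4 libraries, 9 of 187 sets of values examined had 1 library whose gap to the nearest other relative to the range passed Dixon's 95% critical value, and chance alone gives about 1 in 20. Hamp was at 207.7 CPM in FSTL3 replicate 4, with the other FSTL3 libraries at 72.54 to 86.94 CPM. In that same library the summed cholesterol synthesis genes were lowest, at 2273 CPM against 2910 to 2943 CPM. In FSTL3 replicate 2, Ppara was highest at 346.6 CPM (227.2 to 240.5 CPM in the others), the summed insulin and growth factor receptors were highest at 4391 CPM (3721 to 3778 CPM), and the summed sinusoidal endothelial markers were lowest at 975.7 CPM (1153 to 1189 CPM).

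Among vehicle libraries, Saa1 was at 5173 CPM in replicate 3 (569 to 805.2 CPM in the others) and Fgl1 at 2209 CPM in the same library (1231 to 1317 CPM). The summed genes of endoplasmic reticulum chaperones and secretion were at 17605 CPM in vehicle replicate 2 (11818 to 12688 CPM in the others). The summed proteasome genes were at 3653 CPM in vehicle replicate 1 (3958 to 4005 CPM in the others).

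Small structural RNAs were left out of the main comparison of protein-coding genes. They took at least 0.667% of counts in each FSTL3 library and 0.0056 to 0.00773% in the vehicle libraries of batch 2.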

How the results depend on the processing

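Called genes numbered 3925 (2094 higher, 1831 lower) in a fit of all 23 libraries, 3483 (1757 and 1726) with libraries thinned to the smallest total and 2790 (1443 and 1347) against a 1.5-fold change. The count was 6366 with DESeq2, 6829 with limma-voom, 7151 without a filter, 7929 over all genes of the table, where 53.53% of calls were higher, and 5883 to 6621 on leaving out each library. With the replicate number as a block it was 6417 (3163 and 3254). Same-numbered libraries deviated together with correlations of 0.0337, 0.09, 0.0561 and 0.0986, and differently numbered ones with -0.139 to 0.077. These ranges overlap and do not settle whether the numbers pair the libraries. The labels state no pairing, and the main fit used none. The block ended the calls of Hamp and Ltbp1 and gave calls to Gdf15 and Col1a1.

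The correlation with exon length was 0.335 without a filter, 0.600 with a stricter one, 0.0117 with the trend removed, 0.356 over all genes, 0.573 without genes inside others, 0.501 against the vehicle of batch 1, 0.570 after thinning and 0.528 to 0.550 on leaving out each library. The clock index difference was 2.06 without genes inside others and -0.35 against the vehicle of batch 1.

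With the length trend removed the sign turned in Il6st (-0.011), Slc1a2 (-0.029), Srrm2 (-0.030), Ncor1 (-0.12), Rora (-0.28), Tgfbrap1 (-0.41), Clock (-0.69) and Gstp1 (0.10). Against the vehicle of batch 1 it turned in Cry2 (-0.020), Bhlhe40 (-0.035), Per2 (-0.095), Ciart (-0.10), Srebf1 (-0.11), Mfsd2a (-0.13), Inhbb (-0.23), Tgfbr2 (-0.28), Acot3 (-0.30), Acvr1b (-0.32), Tgfbrap1 (-0.34), Usp2 (-0.39), Eng (-0.40), Hlf (-0.49), Bhlhe41 (-0.49), Per1 (-0.62), Dbp (-1.21), Hba-a2 (-1.61), Cebpb (-1.76), Hspe1 (0.013), Avpr1a (0.047), Baat (0.048), Cyp2c68 (0.076), Tgif1 (0.092), Otc (0.45), Arntl (0.49), Cyp2c70 (0.67) and Gstp1 (0.73). The cause of these turns was not tested.

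Of 221 named genes, 191 were called, and 10 of these calls were lost on leaving out at least 1 library. The vehicle of batch 1 differs from FSTL3 in batch, and the FSTL3 libraries differ from both vehicle groups in RNA make-up, so that injection and preparation cannot be told apart. At this depth 11504 of 21985 genes had enough counts to be tested. Of 188 called named genes also tested against the vehicle of batch 1, 136 were called there with the same sign. Many named genes were chosen for their calls or low p in these data, and the fits share libraries. The counts of named genes that kept a call are therefore not rates for all genes called. Reads of near-identical copies in the Mup, Saa and histone families cannot be told apart.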
